A study of Mus musculus with 14 samples.

Results

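The 10 genes described here are growth factor induced early transcription factors (Egr1, Egr2, Egr3, Ier2, Fos, Jun and Junb) and feedback inhibitors of ERK signalling (Spry2, Spry4 and Dusp6). They were taken by gene symbol from a count table of 53465 genes, and each symbol had 1 row. RNA was sequenced from KL974, a cultured line of mouse acute myeloid leukemia (AML) with the labelled genotype Trp53R172H;shMll3;shNf1, so every library carried a mutant Trp53 and hairpins against Mll3 and Nf1. The medium of every culture held IL3, IL6 and SCF, and each cell carried a lentiviral hairpin whose expression, with that of blue fluorescent protein (BFP), doxycycline turns on. The 7 groups had 2 libraries each. BFP positive cells at day 4 with hairpin shOgdh346 and with hairpin shOgdh2081 were the knockdown groups. The control hairpin, shRen713, gave cells at day 0, which were untreated, and BFP positive and BFP negative cells at day 2 and at day 4. The sorted groups were labelled as doxycycline treated, with the BFP negative cells called uninduced. Nothing in the labels ties the 2 libraries of a group to separate cultures, so p-values here measure the spread between these libraries, which may be technical. KL974 is a single line.

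Cytokines and growth factors such as SCF, the ligand of the receptor KIT, activate RAS and then the kinases RAF, MEK and ERK. ERK phosphorylates transcription factors that are already in the nucleus, and these switch on immediate early genes with no need for new protein synthesis. The products of Egr1, Fos, Jun and their relatives are themselves transcription factors, while Sprouty proteins and DUSP6 are made in response to ERK and dampen the same pathway.

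The promoters of Fos, Jun and Junb are shown because these 3 genes encode subunits of AP-1 dimers, while Jun took another course than Fos and Junb. Over the 14 libraries the Pearson r of log2 levels was 0.68 for Fos and Junb, 0.17 for Fos and Jun and -0.35 for Jun and Junb. The 250 bases upstream of the annotated start were read from RefSeq for build GRCm38.p6, on the strand of the gene. They lie at chr12:85473640-85473889 on the plus strand for Fos, at chr4:95052223-95052472 on the minus strand for Jun and at chr8:84978749-84978998 on the minus strand for Junb. Capitals mark matches to the motifs searched on either strand.
Fos: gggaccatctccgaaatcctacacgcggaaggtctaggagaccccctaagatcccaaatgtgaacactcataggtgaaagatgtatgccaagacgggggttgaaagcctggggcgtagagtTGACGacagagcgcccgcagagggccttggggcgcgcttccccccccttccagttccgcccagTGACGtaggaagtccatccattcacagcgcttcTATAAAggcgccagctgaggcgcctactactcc
Jun: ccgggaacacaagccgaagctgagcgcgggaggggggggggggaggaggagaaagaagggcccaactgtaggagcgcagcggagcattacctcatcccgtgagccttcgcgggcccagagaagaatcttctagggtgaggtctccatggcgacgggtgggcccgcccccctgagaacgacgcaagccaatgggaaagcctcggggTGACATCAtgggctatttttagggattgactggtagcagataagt
Junb: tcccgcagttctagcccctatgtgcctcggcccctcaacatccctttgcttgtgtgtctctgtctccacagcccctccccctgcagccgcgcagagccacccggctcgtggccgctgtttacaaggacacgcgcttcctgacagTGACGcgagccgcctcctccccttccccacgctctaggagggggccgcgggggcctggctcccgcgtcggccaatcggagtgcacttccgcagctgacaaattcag
The motifs were the CRE TGACGTCA, its core TGACG, the AP-1 site TGANTCA, the AP-1 variant TGACATCA known from the Jun promoter, the ETS core CCGGAAG, the TATA box TATAAA and the CArG box of serum response factor. The core TGACG lies inside the full CRE, so every full CRE also counts as a core match. In the Fos promoter the core TGACG ended 125 and 62 bases before the start, and TATAAA ended 28 bases before it. In the Jun promoter TGACATCA ended 38 bases before the start, and in the Junb promoter the core TGACG ended 102 bases before it. Among 32851 RefSeq promoter windows of the same length, TGACG occurred in 17.77%, TATAAA in 12.37%, CCGGAAG in 6.907%, TGANTCA in 6.749%, TGACATCA in 2.928%, TGACGTCA in 1.546% and the CArG box in 1.467%. A match is a string of letters, and no match says only that the letters are not in this window. The promoter table held 6 of the 10 genes. Egr1, Egr3, Ier2 and Spry4 are named only.

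The libraries held 913482 to 10271698 counts, and 10791 genes passed the filter on low counts and were tested. Depth was uneven in the knockdown groups, where shOgdh346 had 5680900 and 1159021 counts and shOgdh2081 had 913482 and 4627632, against 3191961 and 2148243 in the BFP positive controls of day 4. Levels are counts-per-million (CPM) after TMM scaling, with the total over the tested genes as the base, and the values of a group are given in the order replicate 1, replicate 2. The targeted gene, Ogdh, stood at 60.8 and 60.8 CPM (shOgdh346) and 51.5 and 52.3 CPM (shOgdh2081), against 247 and 267 CPM in the BFP positive controls of day 4. Among markers, Kit (481 to 580 CPM) and Myb (537 to 891 CPM) were high in every library, while the myeloid genes Elane and Cebpa had 0 counts, Mpo had 1 count and Cd34 had 2 counts over all 14 libraries. Other genes of the same marker list were present at low levels, with Ptprc at 5.45 to 15.4 CPM and Csf2rb at 1.72 to 15.4 CPM. Spi1 did not pass 2.19 CPM and had 50 counts in all. Summed lymphoid markers did not pass 0.388 CPM in any library. The erythroid regulator Klf1 stood at 180 to 260 CPM.

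Of the 10 genes, 7 passed the filter on low counts: Egr1, Ier2, Fos, Jun, Junb, Spry4 and Dusp6. Per kilobase of transcript, the mean level over all 14 libraries was highest for Ier2 (38.7 CPM per kb), followed by Egr1 (20.7), Jun (10.1), Spry4 (6.57), Junb (6.49), Dusp6 (4.99) and Fos (0.897). The other 3 genes were at or near 0. Egr3 had 0 counts in all 14 libraries, which allows a summed level of up to 0.0623 CPM at 3 counts over all of them. Egr2 had 9 counts in all, with 0 in 8 libraries and no library above 1.097 CPM. Spry2 had 36 counts in all, and its highest library was a control BFP negative library at day 2 with 1.71 CPM. No fold change is given for these 3 genes. Limits and intervals of this kind cover counting error only and leave out the spread between libraries. The reads also carry no molecular identifiers.

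**Figure D1:**
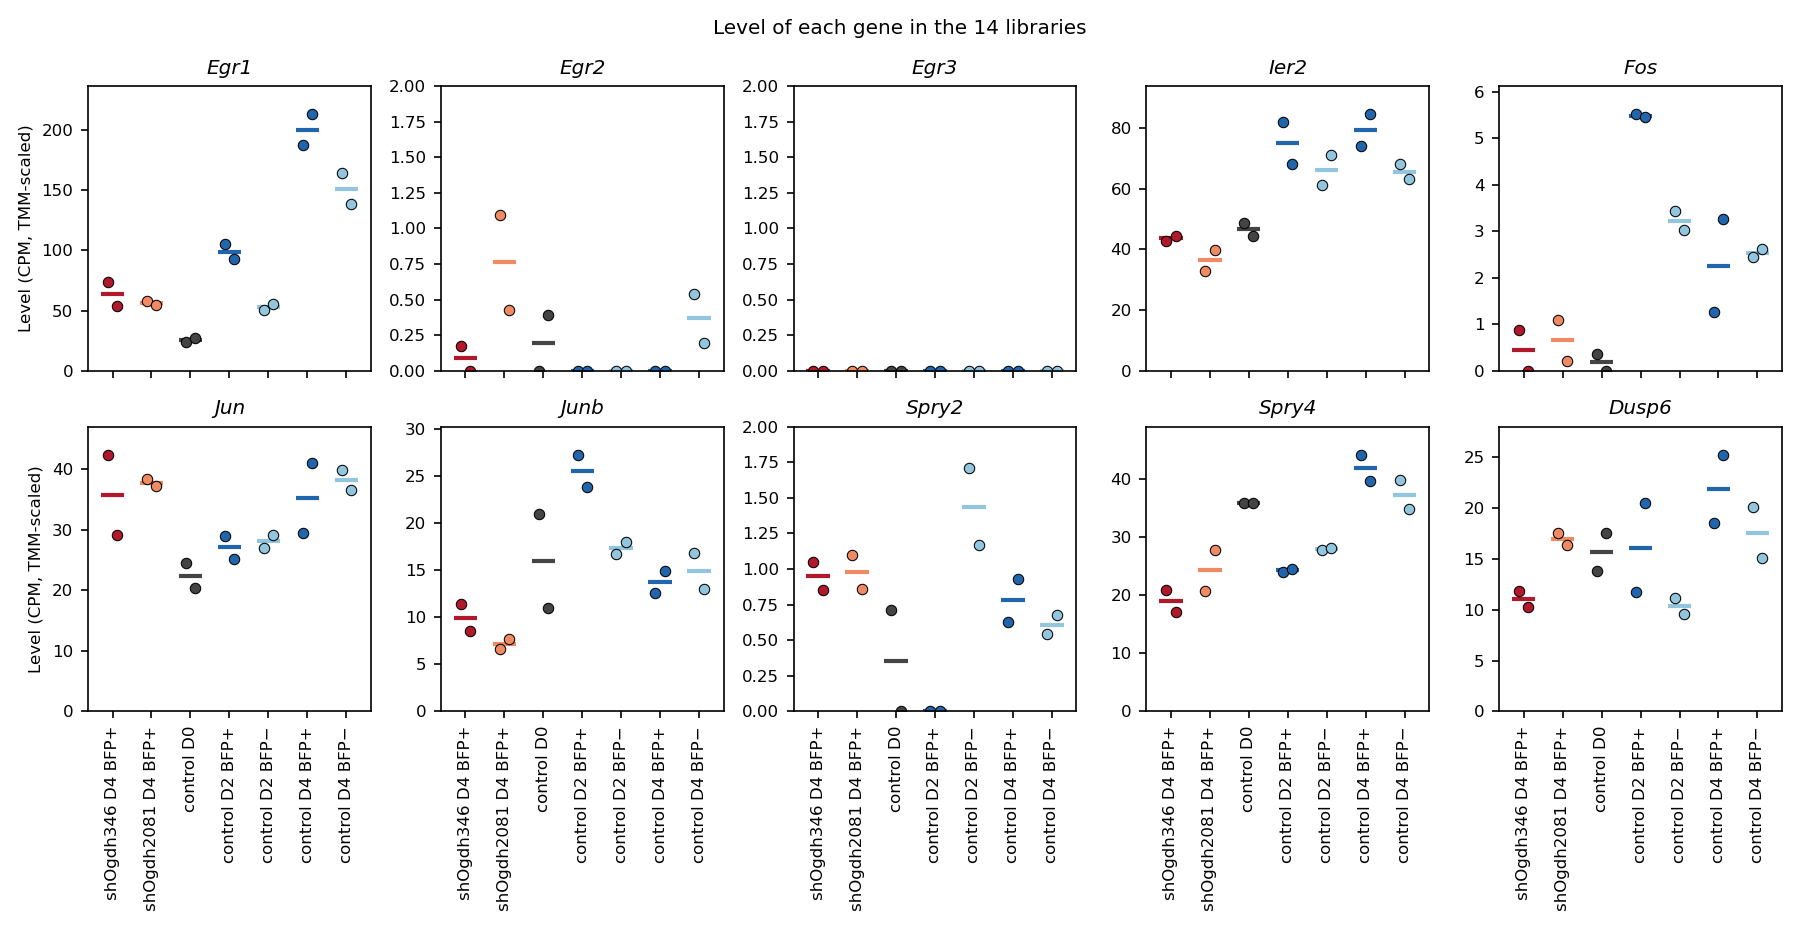
Level of each of the 10 genes in CPM (vertical axis, linear, from 0) in the 7 groups (horizontal axis), with a point for each library and a bar at the mean of 2. Egr1 and Ier2 sit lower in the 4 Ogdh hairpin libraries than in both control BFP positive libraries at day 4, Egr2, Egr3 and Spry2 stay near 0, and Fos never passes 5.51 CPM.

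With Ogdh knocked down, 4 of the 7 tested genes were lower than in control BFP positive cells at day 4, and none was higher: Egr1, Ier2, Spry4 and Dusp6. Over all 10791 genes, 1735 (16.1%) were called in this comparison at an adjusted p under 0.05, with 8.36% called lower and 7.72% called higher. The median log2 fold change was -0.87 over the 7 genes, with 1 positive and 6 negative values, and 0.00 over all tested genes. Jun, Junb and Fos did not pass. The count over all genes rests on the control libraries, since without control BFP positive replicate 1 at day 4 it was 461 and without replicate 2 it was 936. In bulk RNA such as this, less RNA per cell and fewer cells with the RNA cannot be told apart.

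Egr1 encodes a zinc finger transcription factor and lies at chr18:34859823-34864984 on GRCm38, on the plus strand. It measured 74.1 and 53.9 CPM (shOgdh346) and 58.1 and 54.5 CPM (shOgdh2081), against 188 and 213 CPM in the BFP positive controls of day 4. All 4 knockdown libraries were below both control libraries, with a wide gap. Both hairpins over control gave a log2 fold change of -1.69 ± 0.10 (standard error; 4 libraries against 2), which is 3.22-fold lower, with an edgeR adjusted p of 8.35e-23. It was -1.53 ± 0.11 with shOgdh346 alone and -1.85 ± 0.12 with shOgdh2081 alone. The call held in each of 16 alternative analyses, where the log2 fold change ran from -1.94 to -1.61.

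Ier2 encodes a small nuclear protein of the immediate early class and lies at chr8:84661331-84662852 on the minus strand. Its level was 42.8 and 44.5 CPM (shOgdh346) and 32.9 and 39.9 CPM (shOgdh2081), against 73.9 and 84.4 CPM in the BFP positive controls of day 4. The groups did not overlap. The difference was -0.95 ± 0.11 on the log2 scale, or 1.93-fold lower, with an edgeR adjusted p of 3.81e-09. With shOgdh346 it was -0.86 ± 0.13 and with shOgdh2081 -1.03 ± 0.14, and the call for both hairpins together also held in each of 16 alternatives.

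Fos, Jun and Junb encode subunits of the dimeric transcription factor AP-1. Fos (chr12:85473890-85477273, plus strand) was close to the limit of detection, with 7 counts over the 4 knockdown libraries against 11 counts over the 2 control libraries. This gave 0.873 and 0.00 CPM (shOgdh346) and 1.097 and 0.215 CPM (shOgdh2081), against 1.253 and 3.26 CPM in the BFP positive controls of day 4. Every knockdown library was below both controls, but the lowest control was close to the highest knockdown library. The fitted log2 fold change was -1.94 ± 0.73, and its edgeR adjusted p of 0.0593 missed the threshold. It ran from -4.09 (without shOgdh346 replicate 1) to -1.18 (without shOgdh2081 replicate 2) with 1 library left out. The first of these values depends on the prior count that edgeR adds, since shOgdh346 then has 0 counts. From the summed counts Fos was 3.67-fold lower, with a 95% counting interval of 1.30 to 11.2.

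Jun lies at chr4:95049034-95052222 on the minus strand. It stood at 42.3 and 29.1 CPM (shOgdh346) and 38.4 and 37.1 CPM (shOgdh2081), against 29.4 and 41.0 CPM in the BFP positive controls of day 4. These ranges overlapped. Their log2 fold change was 0.16 ± 0.14 with a 95% interval of -0.13 to 0.45 (edgeR adjusted p = 0.504), so a change as large as that of Egr1, Ier2 or Spry4 lay outside the interval. The sign of this small difference turned to -0.058 without shOgdh346 replicate 1 and to -0.094 without control BFP positive replicate 1. An antisense gene, Junos, overlaps Jun and had 26 counts against 1619 for Jun.

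Junb measured 11.4 and 8.56 CPM (shOgdh346) and 6.58 and 7.72 CPM (shOgdh2081), against 12.5 and 14.9 CPM in the BFP positive controls of day 4. The 4 knockdown libraries were all below both controls. For both hairpins together the log2 fold change was -0.58 ± 0.24, and the edgeR adjusted p of 0.0895 missed the threshold. For shOgdh2081 alone it was -0.84 ± 0.30 with an edgeR adjusted p of 0.0522. It did not pass in 12 of 13 alternatives, and passed only when just the compared groups were fitted (edgeR adjusted p = 0.0355). Junb (chr8:84974484-84978718, minus strand) shares exon bases with Prdx2 on the other strand, a gene with 24123 counts against 702 for Junb. The sources used here do not give the strand setting of the counting, so some Junb reads may belong to Prdx2.

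Spry4 encodes a Sprouty protein that restrains receptor signalling to RAS and ERK, and the table places it at chr18:38586268-38601268 on the minus strand. Its level was 21.0 and 17.1 CPM (shOgdh346) and 20.8 and 27.9 CPM (shOgdh2081), against 44.2 and 39.6 CPM in the BFP positive controls of day 4. All knockdown libraries were below both controls. This was a log2 fold change of -0.87 ± 0.14, or 1.83-fold lower, with an edgeR adjusted p of 7.20e-06, and it was called in each of 16 alternatives. With shOgdh346 it was -1.06 ± 0.17. With shOgdh2081 it was -0.67 ± 0.17, a call that ended when control BFP positive replicate 1 was left out (-0.58, edgeR adjusted p = 0.134) and under DESeq2 (-0.71, adjusted p = 0.0673).

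Dusp6 encodes a cytoplasmic phosphatase that removes the activating phosphates from ERK, and lies at chr10:99263231-99267489 on the plus strand. It measured 11.9 and 10.3 CPM (shOgdh346) and 17.5 and 16.3 CPM (shOgdh2081), against 18.5 and 25.2 CPM in the BFP positive controls of day 4. The higher shOgdh2081 library came within about a CPM of the lower control library, while the shOgdh346 libraries were well below both. The log2 fold change of both hairpins was -0.62 ± 0.20, or 1.54-fold lower, with an edgeR adjusted p of 0.0238. This call was lost without shOgdh346 replicate 1 (-0.70, adjusted p = 0.075), without shOgdh2081 replicate 2 (-0.58, adjusted p = 0.134), without control BFP positive replicate 2 (-0.42, adjusted p = 0.313) and under DESeq2 (-0.65, adjusted p = 0.199). With shOgdh346 alone the log2 fold change was -0.88 ± 0.23 with an edgeR adjusted p of 0.00803, a call lost in 4 of 13 alternatives. Leaving out shOgdh346 replicate 1 (-1.04) or control BFP positive replicate 2 (-0.68) was among these. With shOgdh2081 alone the log2 fold change was -0.36 ± 0.23 (edgeR adjusted p = 0.324).

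For shOgdh346 alone, 4 of the 7 genes were lower than in control BFP positive cells (Egr1, Ier2, Spry4 and Dusp6), where 11.2% of all tested genes were called and 5.60% were called lower. With shOgdh2081, 3 genes were lower (Egr1, Ier2 and Spry4), where 11.6% of all tested genes were called and 5.53% were called lower. In the direct comparison of shOgdh2081 with shOgdh346, edgeR called 0 of the 7 genes, and 0.0834% of all tested genes. At an unadjusted edgeR p under 0.05 there were 3, Egr1, Spry4 and Dusp6, against 786 of all 10791 tested genes. DESeq2 called 0 of the 7 genes. The log2 difference of shOgdh2081 over shOgdh346 was -0.32 for Egr1 (95% interval -0.59 to -0.049, edgeR adjusted p = 0.588), and 0.027 without shOgdh346 replicate 1. It was 0.39 for Spry4 (interval 0.022 to 0.76, edgeR adjusted p = 0.654) and 0.51 for Dusp6 (interval 0.020 to 1.01, edgeR adjusted p = 0.664). The interval for Ier2 ran from -0.47 to 0.13.

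**Figure D2:**
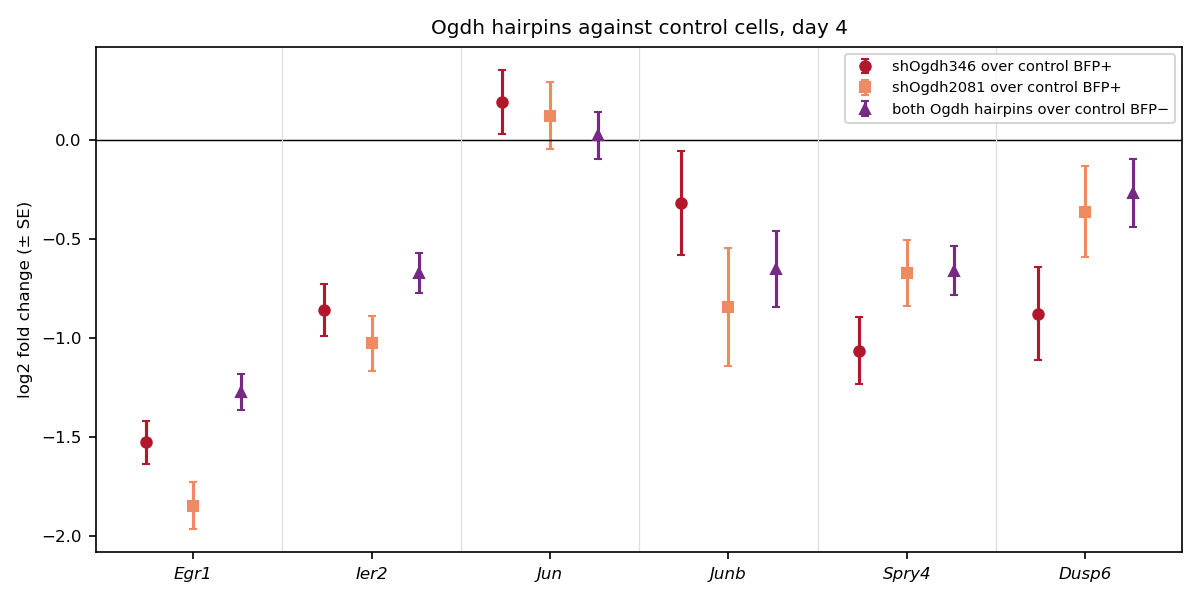
Log2 fold change with its standard error (vertical axis) of 6 genes for shOgdh346 and shOgdh2081 over control BFP positive cells and for both hairpins over control BFP negative cells, all at day 4. Egr1, Ier2, Spry4, Junb and Dusp6 have values below 0 in all 3, and Jun lies near 0. Junb is at -0.32 with shOgdh346 and at -0.84 with shOgdh2081. Dusp6 is at -0.88 with shOgdh346 and at -0.36 with shOgdh2081. Fos, with few counts, is not drawn.

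Set against the control BFP negative cells of day 4, both hairpins together were lower in 5 of the 7 genes (Egr1, Ier2, Spry4, Fos and Junb), where 20.8% of all tested genes were called and 10.3% were called lower. The log2 fold change was -1.27 ± 0.09 for Egr1, -0.67 ± 0.10 for Ier2 and -0.66 ± 0.12 for Spry4, and these 3 calls held in each of 16 alternatives. Junb was at -0.65 ± 0.19 with an edgeR adjusted p of 0.0113, a call lost in 5 of 16 alternatives. Leaving out shOgdh2081 replicate 2 (-0.75) or control BFP negative replicate 1 (-0.52) was among these. Over the 16 alternatives the Junb value ran from -0.89 to -0.15. Fos was at -2.25 ± 0.56 with an edgeR adjusted p of 0.00232. This rested on 7 counts over the 4 knockdown libraries against 36 counts over the 2 control BFP negative libraries. Without shOgdh346 replicate 1 it was at -4.40, a value that depends on the prior count, since that hairpin then has 0 counts. The Fos call was lost in 3 of 14 alternatives. Leaving out shOgdh2081 replicate 2 (-1.49) or control BFP negative replicate 2 (-2.16) was among these. Dusp6 did not pass (-0.27 ± 0.17), and Jun was at 0.02 ± 0.12.

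The control cells themselves changed between day 0 and day 4. The titles name no sort for the untreated cells of day 0, so time, doxycycline and sorting cannot be told apart in any comparison with them. Comparisons with day 0 also share the same 2 day 0 libraries. The summed level of 6 heat shock and handling genes was 1722 to 1779 CPM at day 0, 2175 to 2224 CPM in BFP positive and 1957 to 2165 CPM in BFP negative cells at day 2, and 1756 to 1777 CPM in BFP positive and 1679 to 1831 CPM in BFP negative cells at day 4. Most of it was Hsp90aa1, and its part in the values below was not tested. Leaving aside Fos, which was close to 0 at day 0, Egr1 had the widest range of the tested genes over the groups, with 7.85-fold between the highest and the lowest group mean.

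Egr1 measured 24.1 and 27.0 CPM at day 0, 105 and 92.7 CPM in BFP positive controls of day 2 and 188 and 213 CPM in those of day 4. The BFP negative cells had 50.1 and 55.5 CPM at day 2 and 165 and 138 CPM at day 4. No sorted control library was as low as either day 0 library. Over day 0, the log2 fold change was 1.98 ± 0.15 in BFP positive and 1.07 ± 0.16 in BFP negative cells at day 2, and 2.97 ± 0.13 in BFP positive and 2.55 ± 0.13 in BFP negative cells at day 4, and each was called by edgeR. The day 2 call in BFP negative cells was lost when all libraries were thinned to 913482 counts (0.65, adjusted p = 0.185). From day 2 to day 4 Egr1 rose again, by 0.99 ± 0.11 in BFP positive and by 1.48 ± 0.11 in BFP negative cells. In the order of the group means, control BFP positive cells at day 4 came first (200.4 ± 18 CPM, SD, n = 2), then BFP negative cells at day 4 (151 ± 18.5), BFP positive cells at day 2 (99.0 ± 8.96), shOgdh346 (64.0 ± 14.3), shOgdh2081 (56.3 ± 2.56), BFP negative cells at day 2 (52.8 ± 3.82) and day 0 (25.5 ± 1.99). The shOgdh346, shOgdh2081 and day 2 BFP negative libraries overlapped, and the other neighbours did not.

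Ier2 stood at 48.6 and 44.5 CPM at day 0, at 81.9 and 68.1 CPM in control BFP positive cells at day 2 and at 73.9 and 84.4 CPM in those of day 4. Among BFP negative cells it was 61.2 and 70.9 CPM at day 2 and 68.1 and 63.0 CPM at day 4. Neighbours in the order of these 4 sorted control groups overlapped, and all were above day 0. Over day 0 the log2 fold change was 0.72 ± 0.14 and 0.75 ± 0.13 in BFP positive cells at day 2 and day 4, and 0.52 ± 0.13 and 0.48 ± 0.12 in BFP negative cells at day 2 and day 4, all called by edgeR. Of these calls, that of BFP positive cells at day 2 was lost in 2 of 13 alternatives, among them without BFP positive replicate 1 (0.54). That of BFP negative cells at day 2 was lost in 5 of 13 alternatives. Leaving out day 0 replicate 2 (0.46) or BFP negative replicate 2 (0.38) was among these. That of BFP negative cells at day 4 was lost in 4 of 12 alternatives. Leaving out day 0 replicate 1 (0.54) or replicate 2 (0.41) was among these. The day 4 call in BFP positive cells was lost only when libraries were thinned (0.58, adjusted p = 0.108).

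Fos had 1 count over both day 0 libraries, or 0.355 and 0.00 CPM. It was at 5.51 and 5.45 CPM in control BFP positive cells at day 2 and at 1.253 and 3.26 CPM in those of day 4. For BFP negative cells it was at 3.43 and 3.03 CPM at day 2 and at 2.44 and 2.62 CPM at day 4. All 8 sorted control libraries were above both day 0 libraries. The ratio of summed counts over day 0 was 29.5 (95% counting interval 4.81 to 1214) in BFP positive cells at day 2, 17.1 (2.74 to 705) in BFP negative cells at day 2, 11.1 (1.61 to 477) in BFP positive cells at day 4 and 13.8 (2.33 to 561) in BFP negative cells at day 4. With edgeR the adjusted p was 8.93e-05, 0.00487, 0.0583 and 0.00968 in that order. The fitted fold changes depend on the prior count and are not given. The call in BFP negative cells at day 2 was lost in 3 of 10 alternatives. Leaving out day 0 replicate 2 or the BFP negative replicate 2 of that day was among these. At day 4 the call in BFP negative cells was lost in 4 of 10 alternatives. Leaving out day 0 replicate 1, day 0 replicate 2 or the BFP negative replicate 2 of day 4 was among these.

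Jun measured 24.5 and 20.3 CPM at day 0, 28.9 and 25.2 CPM in control BFP positive cells at day 2 and at 29.4 and 41.0 CPM in those of day 4. Its BFP negative values were 27.0 and 29.1 CPM at day 2 and 39.9 and 36.5 CPM at day 4. The day 4 libraries were all above the day 2 and day 0 libraries, the lowest of them by a narrow margin. At day 4 it was higher than at day 0 by 0.61 ± 0.19 in BFP positive cells (edgeR adjusted p = 0.0295) and by 0.74 ± 0.16 in BFP negative cells (edgeR adjusted p = 0.0015). The first call was lost in 6 of 12 alternatives. Leaving out day 0 replicate 1 (0.76), day 0 replicate 2 (0.48) or BFP positive replicate 2 (0.38) was among these. The second call was lost in 3 of 12 alternatives, among them without day 0 replicate 2 (0.61).

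Junb was uneven at day 0, with 20.9 and 10.9 CPM. It measured 27.2 and 23.9 CPM in BFP positive controls of day 2 and 12.5 and 14.9 CPM in those of day 4. The BFP negative cells had 16.7 and 17.96 CPM at day 2 and 16.8 and 12.99 CPM at day 4. Control BFP positive cells at day 2 were above every other group. Their difference from day 0 was 0.69 ± 0.23 with an edgeR adjusted p of 0.0272, a call lost in 6 of 13 alternatives. Leaving out day 0 replicate 2 (0.31) or BFP positive replicate 1 (0.56) was among these. Between day 4 and day 2 of the BFP positive cells the log2 fold change was -0.94 ± 0.24 with an edgeR adjusted p of 0.00404. That call was lost in 5 of 13 alternatives. Leaving out BFP positive replicate 1 of day 2 (-0.83) or of day 4 (-0.81) was among these.

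Spry4 stood at 35.8 and 35.9 CPM at day 0, at 24.1 and 24.5 CPM in control BFP positive cells at day 2 and at 44.2 and 39.6 CPM in those of day 4. Its BFP negative values were 27.8 and 28.2 CPM at day 2 and 39.9 and 34.8 CPM at day 4. Day 2 was the low point of the control series in both fractions, and none of its 4 libraries reached the day 0 or day 4 libraries. In BFP positive cells the log2 fold change was -0.56 ± 0.18 between day 2 and day 0 (edgeR adjusted p = 0.0218) and 0.80 ± 0.18 between day 4 and day 2 (edgeR adjusted p = 0.00088). The day 2 call against day 0 was lost in 6 of 13 alternatives, among them whichever of the 4 libraries was left out (-0.57 to -0.55). The day 4 call against day 2 was lost without replicate 1 of day 2 (0.77, adjusted p = 0.0723) or replicate 1 of day 4 (0.69, adjusted p = 0.0505). In BFP negative cells the differences did not pass (-0.35 ± 0.16 between day 2 and day 0, and 0.38 ± 0.14 between day 4 and day 2).

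Dusp6 stood at 13.8 and 17.6 CPM at day 0, at 11.7 and 20.4 CPM in control BFP positive cells at day 2 and at 18.5 and 25.2 CPM in those of day 4. Its BFP negative values were 11.1 and 9.56 CPM at day 2 and 20.1 and 15.03 CPM at day 4. Most groups overlapped. Between day 4 and day 2 of the BFP negative cells the log2 fold change was 0.71 ± 0.22 with an edgeR adjusted p of 0.0325. This call was lost in 5 of 12 alternatives. Leaving out replicate 1 of day 2 (0.79), replicate 2 of day 2 (0.58) or replicate 1 of day 4 (0.56) was among these.

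In counts, 5 of the 7 genes differed between control BFP positive cells at day 2 and day 0 (4 higher: Egr1, Ier2, Fos and Junb; 1 lower: Spry4), against 17.9% of all tested genes (9.10% higher and 8.77% lower). Of BFP negative cells at day 2 over day 0, 3 genes were higher (Egr1, Ier2 and Fos), against 10.3% of all called and 5.33% called higher. At day 4 over day 0, 3 genes were higher in BFP positive cells (Egr1, Ier2 and Jun), against 7.11% of all called and 3.46% called higher, and 4 were higher in BFP negative cells (Egr1, Ier2, Fos and Jun), against 8.03% of all called and 3.84% called higher. Between day 4 and day 2, Egr1 and Spry4 rose and Junb fell in BFP positive cells, against 11.9% of all genes called (5.88% higher and 6.04% lower), and Egr1 and Dusp6 rose in BFP negative cells, against 6.84% of all called and 3.04% called higher.

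**Figure D3:**
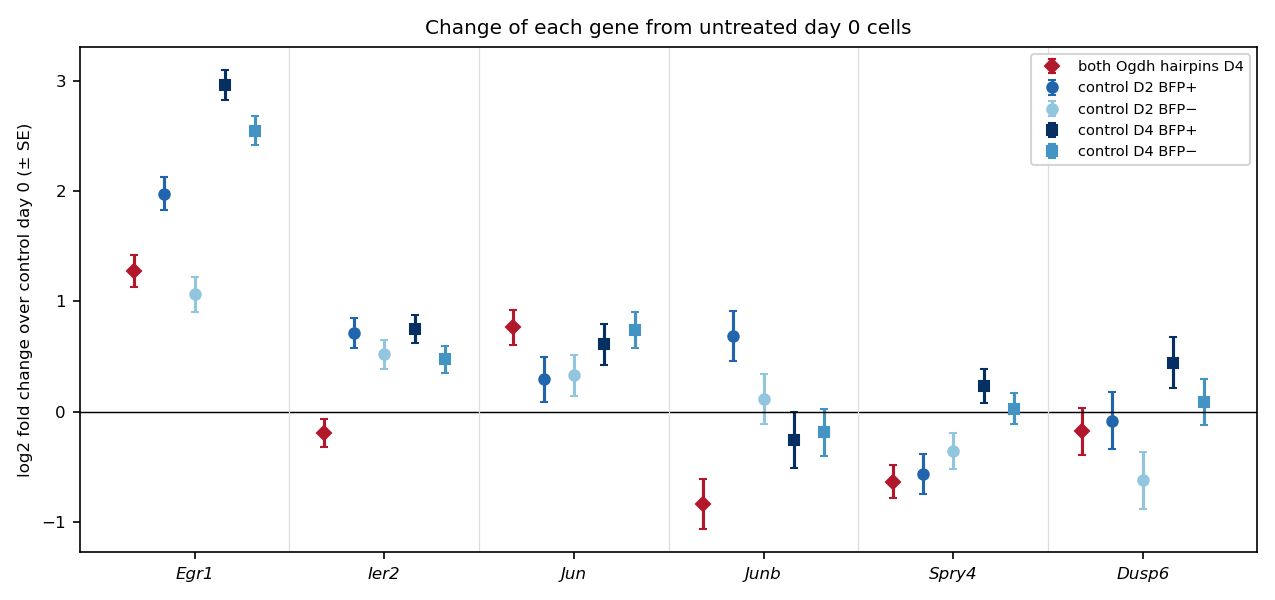
Log2 fold change over day 0 control cells with its standard error (vertical axis) of 6 genes in both Ogdh hairpin groups together at day 4 and in the 4 sorted control groups. Egr1 is above 0 in all 5 and highest in control BFP positive cells at day 4 (2.97), Ier2 is above 0 in the 4 control groups but at -0.19 with the Ogdh hairpins, and Spry4 is at -0.63 with the Ogdh hairpins. Fos, with 1 count at day 0, is not drawn.

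Within the control hairpin, BFP positive cells were labelled induced and sorted, and BFP negative cells uninduced and sorted. Whether the 2 fractions also differed in other ways was not tested. At day 2, Egr1 was the gene called among the 7, with 105 and 92.7 CPM in BFP positive cells against 50.1 and 55.5 CPM in BFP negative cells, where 6.23% of all tested genes were called. The libraries did not overlap, and the log2 fold change of 0.91 ± 0.13 (edgeR adjusted p = 3.97e-07) was called in each of 13 alternatives. At day 4, Egr1 measured 188 and 213 CPM in BFP positive cells against 165 and 138 CPM in BFP negative cells, where 0.0741% of all tested genes were called. The log2 fold change was 0.42 ± 0.09 with an edgeR adjusted p of 0.0432. This call was lost in 7 of 13 alternatives, among them without BFP positive replicate 1 (0.51, adjusted p = 0.218), BFP positive replicate 2 (0.33, adjusted p = 1.00) and BFP negative replicate 2 (0.28, adjusted p = 0.568). The difference between the 2 days' effects was -0.50 ± 0.16 for Egr1 with an edgeR adjusted p of 0.159, and 0 of the 7 genes were called in that test by edgeR and by DESeq2, against 0.658% of all. At an unadjusted edgeR p under 0.05 there were 2, Egr1 and Junb, against 1057 of all 10791 tested genes. Without BFP negative replicate 2 of day 4 the Egr1 difference was -0.64.

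Knockdown cells at day 4 can also be set beside control cells at day 0. Of the 7 genes, Egr1 (1.28 ± 0.14) and Jun (0.77 ± 0.16) were higher and Spry4 (-0.63 ± 0.15) and Junb (-0.84 ± 0.23) were lower with the Ogdh hairpins than at day 0, where 35.7% of all tested genes were called by edgeR (17.9% higher and 17.8% lower). The calls for Egr1, Jun and Spry4 held in each of 16 alternatives. The Junb call was lost in 2 of 16 alternatives, among them without day 0 replicate 1 (-0.28). Ier2 did not pass (-0.19 ± 0.13), with 42.8, 44.5, 32.9 and 39.9 CPM in the Ogdh hairpin libraries against 48.6 and 44.5 CPM at day 0. Egr1 in the Ogdh hairpin libraries thus lay between its day 0 and its control day 4 levels, without touching either. Summed mast cell and basophil markers moved with the knockdown, with 116 to 134 CPM over the Ogdh hairpin libraries, 55.4 to 63.4 CPM in control BFP positive cells at day 4 and 18.1 to 20.7 CPM at day 0. Most of that sum was Ms4a2, and the mast cell protease genes Mcpt8 and Tpsb2 had 1 and 0 counts over all libraries. Summed erythroid markers were at 598 to 676 CPM over the Ogdh hairpin libraries and at 476 to 495 CPM in control BFP positive cells at day 4. Of 6 heat shock and handling genes 4 were tested and 1 was higher with knockdown than in control BFP positive cells at day 4, the inducible chaperone gene Hspa1b. It averaged 10.8 CPM with shOgdh346 and 11.7 CPM with shOgdh2081 against 3.05 CPM in those controls (1.81 ± 0.34, edgeR adjusted p = 5.59e-05, called in each of 14 alternatives), and its reads may be shared with its near-identical neighbour Hspa1a. The summed level of the 6 genes was 1779.8 to 1831 CPM (shOgdh346) and 1802 to 1849.9 CPM (shOgdh2081), against 1756 to 1777 CPM in those controls. The part of these 3 marker lists in the values above was not tested.

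The other genes of the pathway came from lists of 25 other immediate early transcription factor genes, 18 other ERK feedback and output genes, 26 genes of the RAS, RAF, MEK and ERK cascade and 12 phosphatase and stress kinase genes of the p38 and JNK pathways. Each was read in the comparison of both Ogdh hairpins with control BFP positive cells at day 4, where 16.1% of all tested genes were called and the median log2 fold change of all was 0.00. Among the other immediate early genes 18 were tested, 2 were higher, 1 was lower and 15 did not pass, with a median of -0.09. Klf6, a zinc finger transcription factor, was higher by 0.83 ± 0.16 (edgeR adjusted p = 6.16e-05). Btg2, an antiproliferative early response gene, was higher by 0.96 ± 0.31, but its edgeR adjusted p of 0.0259 was lost in 8 of 15 alternatives. Srf, the serum response factor that binds the CArG box, was lower at -0.52 ± 0.12 (edgeR adjusted p = 0.000894), a call lost only when libraries were thinned.

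Of the other feedback and output genes 10 were tested, 1 was lower, 0 were higher and 9 did not pass, with a median of -0.39. Etv5, an ETS family transcription factor whose transcription follows ERK activity, averaged 56.5 CPM with shOgdh346 and 57.5 CPM with shOgdh2081 against 103 CPM in control BFP positive cells at day 4 (-0.84 ± 0.11, edgeR adjusted p = 1.11e-08, called in each of 16 alternatives). Dusp4, a nuclear ERK phosphatase, did not pass the filter on low counts and is named here after its values were seen. It had 3 and 0 counts with shOgdh346 and 0 and 2 counts with shOgdh2081, against 7 and 7 counts in control BFP positive cells at day 4. Scaled for depth this was 6.54-fold lower, with a 95% counting interval of 2.23 to 23.2, and no test across libraries was made. Dusp4 was also low in control cells at day 2, with 1.03 and 0.00 CPM (BFP positive) and 1.71 and 0.466 CPM (BFP negative). At day 0 it had 4.26 and 3.12 CPM.

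Of 25 tested cascade genes 5 were higher, 3 were lower and 17 did not pass, with a median of 0.05. Nf1, the RAS GTPase activating protein that the genotype names a hairpin against, averaged 110 CPM with shOgdh346 and 107 CPM with shOgdh2081 against 56.4 CPM in control BFP positive cells at day 4 (0.91 ± 0.11, edgeR adjusted p = 1.48e-09, called in each of 16 alternatives). The kinase gene Braf was higher by 0.55 ± 0.12, the exchange factor gene Sos2 by 0.42 ± 0.11 and the ETS factor gene Elk4 by 0.41 ± 0.11. The Braf call was lost in 1 of 16 alternatives, without control BFP positive replicate 1 (0.50). The Sos2 call was lost in 4 of 16 alternatives. Leaving out control BFP positive replicate 1 (0.41) or shOgdh346 replicate 1 (0.36) was among these. The Elk4 call was lost in 2 of 16 alternatives, among them without control BFP positive replicate 2 (0.36). The adaptor gene Gab2 was lower at -0.64 ± 0.10, a call lost only when libraries were thinned. The adaptor gene Grb2 (-0.32 ± 0.08) and the GTPase gene Hras (-0.61 ± 0.17) were also lower. The Grb2 call was lost in 2 of 16 alternatives and the Hras call in 4 of 16. Leaving out control BFP positive replicate 1 ended both calls (-0.30 for Grb2, and -0.53 for Hras). Of 11 tested p38 and JNK genes 1 was higher, Dusp16 at 0.42 ± 0.13 with a median of 0.02 for the list, and its call was lost in 6 of 16 alternatives, with adjusted p-values up to 0.294.

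**Figure D4:**
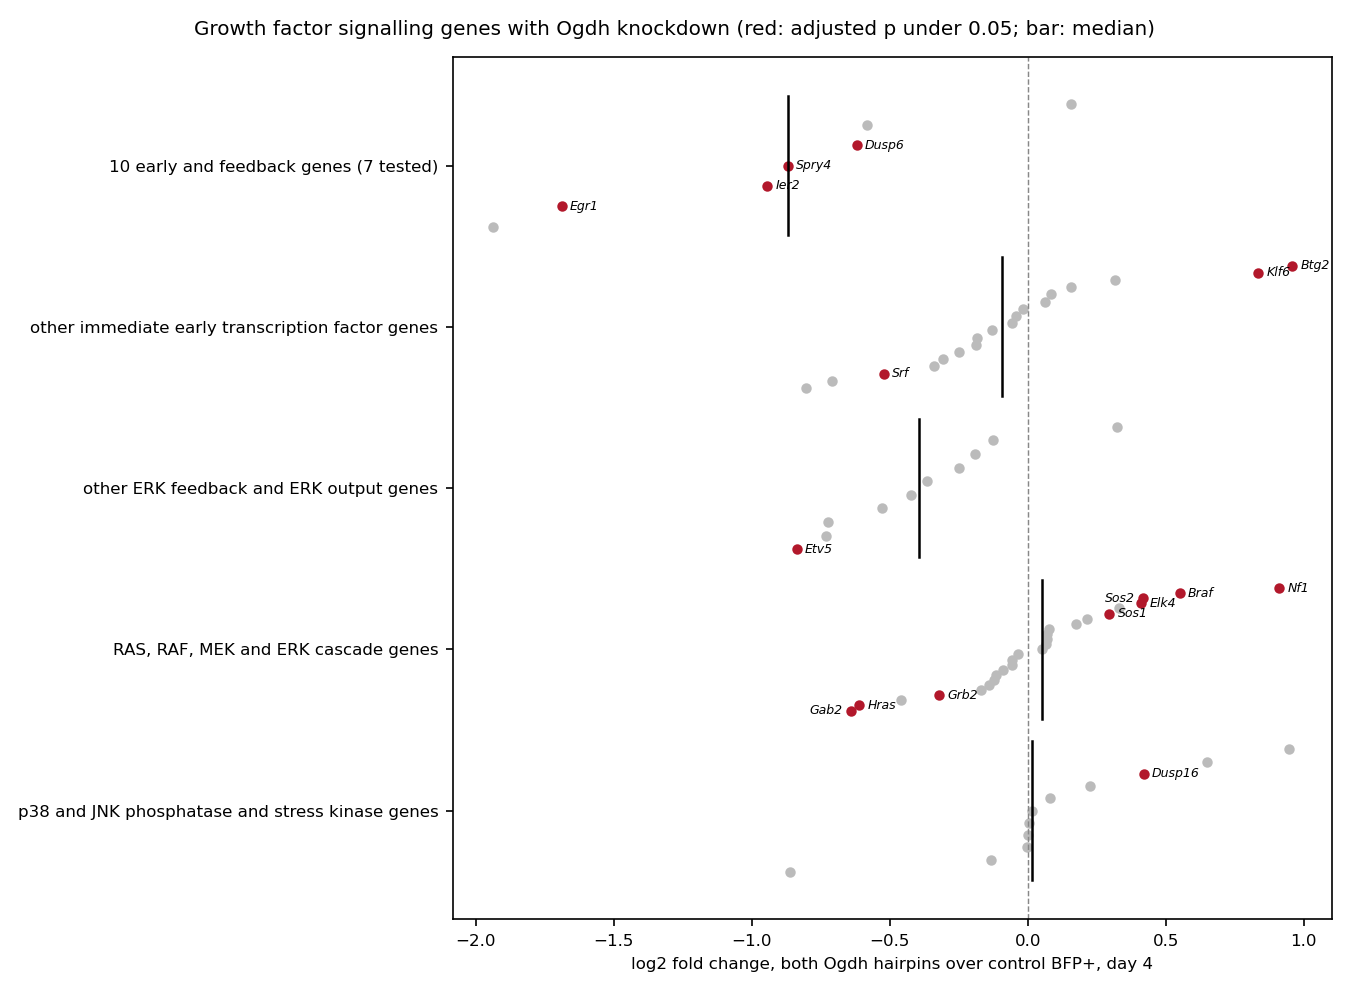
Log2 fold change of both Ogdh hairpins over control BFP positive cells at day 4 (horizontal axis) for the tested genes of the 10 early and feedback genes and of 4 other lists (rows), with a bar at each list's median. Red points passed an adjusted p of 0.05 and are named; the median is -0.87 for the 7 tested early and feedback genes and lies between -0.39 and 0.05 for the other lists.

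Over the 14 libraries, the log2 levels of Ier2 and Fos (Pearson r = 0.76), Ier2 and Junb (0.76), Fos and Junb (0.68) and Egr1 and Ier2 (0.65) went together, Spry4 and Dusp6 less so (0.55), while r was -0.35 for Jun and Junb. These are descriptions over libraries that fall into 7 groups and share their normalization. Among 8717 tested genes with a mean of at least 10 CPM, the 5 whose log2 levels followed Egr1 most closely over the 14 libraries were Fyn (r = 0.90), Txnip (0.87), Slc17a9 (0.84), Il1r1 (0.81) and Akap10 (0.81). Txnip averaged 224 CPM in the Ogdh hairpin groups, 296 CPM in control BFP positive cells at day 4 and 112 CPM at day 0. The 5 closest to Dusp6 were Npat (0.86), Fnbp1 (0.82), Topbp1 (0.81), Zc3h11a (0.80) and Pias2 (0.79).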

How the data were processed

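The deposited table holds the authors' raw read counts, whole numbers for each gene and library, made from polyA-selected TruSeq libraries read single-end at 76 bases, per the labels' protocols. The labels' protocols name HTSeq, an RPKM matrix and the human build hg19, while the submitters' processing notes list featureCounts 1.6.3, STAR 2.6.1a, Trimmomatic 0.36 and FastQC 0.11.5, with the mouse build GRCm38 (mm10). The genes are mouse genes, and 51298 of the 53274 genes shared with the GENCODE M21 annotation (96.29%) have its GRCm38 coordinates. The authors also deposited a transcript length per gene (another unit), used here only for levels per kilobase. The sources used here give neither the strand setting nor the treatment of multiply mapped reads.

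The 10 genes and the lists were chosen with earlier results of these data known. Low-count genes were dropped by filterByExpr (count minimum 10, 7 groups), which left 10791 genes, tested two-sided with edgeR 4.0.16 in R 4.3.3. The quasi-likelihood fit held all 14 libraries, with group as its only term and TMM factors of 0.968 to 1.013. It had 7 residual and 57.6 prior degrees of freedom and a common coefficient of variation of 5.04%. A call is a Benjamini-Hochberg adjusted p under 0.05 over all tested genes, and adjusted p-values are from edgeR unless DESeq2 is named. Where 1 library is left out of a pair, the lone library is assumed to vary like the other groups. An exact permutation test of 2 against 2 libraries cannot go below p = 0.333 and was not used. Standard errors are the absolute log2 fold change divided by the square root of the quasi-likelihood F. The 95% intervals of log2 fold changes were built from these standard errors. Intervals of count ratios are exact conditional binomial intervals. Replicates differed by more than sampling noise in every group (chi-square per degree of freedom 1.16 to 2.71 over genes of at least 20 counts). Named list genes are at most 4 called genes per direction and list, by lowest adjusted p. Alternatives were RLE factors, other count filters, only the compared groups, the replicate block, the library set block, thinning to 913482 counts, DESeq2 1.42.0 and leaving out libraries. The library sets were made here by splitting the library numbers after 15, and are not a labelled batch.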

Additional observations from a re-analysis of the deposited data

How the results depend on the processing

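Egr1, Ier2 and Spry4 kept their direction and their call against control BFP positive cells at day 4 in each of 16 alternatives, and the number of called genes among the 7 stayed between 3 and 4. Over all tested genes the count of 1735 fell to 729 with thinned libraries, to 662 with DESeq2 and to 624 with DESeq2 on the same genes without independent filtering, an alternative chosen after seeing the data. It was 2087 with only the compared groups and 461 to 1468 with 1 library left out. Replicate numbers did not pair the libraries: over 21 pairs of groups, deviations of same-numbered libraries correlated at -0.082 to 0.148, with 2 above 0.1. The replicate block gave 1850 calls over all genes and left each count among the 7 genes as it was.

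Counts among the 7 genes that moved by more than 1.5 times are given next, and the cause was not tested. For both hairpins against control BFP negative cells, 5 became 3 with thinning and with DESeq2 without independent filtering, and 3 to 5 with 1 library left out. Between the BFP positive and BFP negative controls of day 4, 1 became 0 with no filter, with thinning and with both forms of DESeq2, and 0 to 1 with 1 library left out. The difference between the days went from 0 to 1 at most. Over day 0, with thinning, 3 became 0 in BFP negative cells at day 2, 5 became 2 in BFP positive cells at day 2, 4 became 1 in BFP negative cells at day 4 and 3 became 1 in BFP positive cells at day 4. With DESeq2 without independent filtering, these were 1, 3, 1 and 2. With 1 library left out they were 1 to 3, 2 to 4, 1 to 4 and 2 to 3. Between day 4 and day 2, BFP negative cells went from 2 to 1 with thinning, DESeq2 without independent filtering or 1 library left out, and BFP positive cells from 3 to 1 to 4 with 1 library left out.

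Signs turned only for values that were not called. Jun over control BFP positive cells ran from -0.094 to 0.37 for both hairpins, from -0.23 to 0.41 for shOgdh346 and from -0.13 to 0.34 for shOgdh2081 with 1 library left out, and was -0.059 for shOgdh2081 with thinning. Between the hairpins, leaving out 1 library gave Egr1 -0.42 to 0.027, Fos -1.61 to 3.37 and Jun -0.18 to 0.35. The Fos range rests on 5 counts with shOgdh346 and 2 counts with shOgdh2081, and depends on the prior count. DESeq2 with independent filtering gave some of the genes no adjusted p, and such counts are not given. Depth limits Fos, Egr2, Egr3 and Spry2, with 100 counts or fewer in all.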

Other observations

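In control BFP positive cells at day 4 against day 0, 7.11% of all tested genes were called. The same lists are read here in that comparison, and the genes named were chosen after their values were seen. Of 18 tested immediate early genes 2 were lower, Myc (-0.32 ± 0.08, edgeR adjusted p = 0.010) and Fosl1 (-0.89 ± 0.23, edgeR adjusted p = 0.00988), and 0 were higher. Of 25 tested cascade genes 2 were lower, the MEK gene Map2k2 (-0.50 ± 0.12, edgeR adjusted p = 0.00362) and the scaffold gene Ksr1 (-0.57 ± 0.15, edgeR adjusted p = 0.0123), and 0 were higher. None of 10 tested feedback and output genes was called, Etv5 among them (-0.15 ± 0.11, edgeR adjusted p = 0.478), while Egr1 was at 2.97 ± 0.13 in the same comparison. Of 11 tested p38 and JNK genes 1 was lower, the phosphatase gene Dusp14 (-1.27 ± 0.41, edgeR adjusted p = 0.0406).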
